A study of Mus musculus with 22 samples.

Results

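The coat proteins of hepatic lipid droplets and the control of their lipolysis were examined through 10 genes, taken from the raw gene count table as the rows whose symbol was Plin2, Plin3, Plin4, Plin5, Cidea, Cideb, Cidec, Pnpla2, G0s2 or Hilpda. All 10 were found among 55573 annotated genes, and 9 of them passed the filter on low counts that left 14062 genes for testing; Cidea did not. The counts came from polyA RNA-seq of 22 livers, 1 library per mouse. The mice were C57BL/6 and about 3 months old. Cre mice (Flcn WT/WT; Albumin-Cre+/-) were the controls, and liver-Flcn-/- mice carried Flcn f/f with Albumin-Cre, so both genotypes expressed the recombinase, driven by the albumin promoter and therefore in hepatocytes. Either genotype received chow with 10 kcal percent fat or a methionine- and choline-deficient (MCD) diet, which began at 6 weeks of age and lasted 6 weeks. The paper describes this MCD diet as also high in sucrose and fat, and reports that mice lost weight on it. A response to MCD below is therefore one to the whole diet, not to the missing methionine and choline alone. There were 6 Cre livers on chow, 5 Cre livers on MCD, 5 liver-Flcn-/- livers on chow and 6 liver-Flcn-/- livers on MCD, with 13751347 to 21144388 counts per library.

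Lipid droplets are stores of triglyceride and cholesteryl ester under a phospholipid monolayer, and perilipins coat that surface and limit the access of lipases. CIDE proteins sit where droplets touch and let lipid pass from a smaller droplet to a larger one, while Cideb also serves the loading of very low density lipoprotein in hepatocytes. Adipose triglyceride lipase, encoded by Pnpla2, takes the first fatty acid from triglyceride, is activated by Abhd5, and is inhibited by G0s2 and by Hilpda. A diet without methionine and choline restricts phosphatidylcholine synthesis and is a standard means of making mouse livers steatotic.

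Flcn itself was counted first as a check of the labels. Its level, as counts scaled to library size (CPM), ran from 26.1 to 40.2 with a median of 31.8 in Cre livers on chow, and was 24.2, 19.96, 16.7, 19.4 and 21.8 CPM in liver-Flcn-/- livers on chow. These ranges were apart, and Flcn was 1.55-fold lower (log2 fold change -0.63 ± 0.17 SE, adjusted p = 0.025 by edgeR's quasi-likelihood test with Benjamini-Hochberg adjustment). On MCD the 5 Cre livers gave 31.8, 18.2, 39.9, 32.5 and 23.6 CPM against 17.6 to 32.6 (median 26.6) in liver-Flcn-/- livers, which overlapped (log2 fold change -0.16 ± 0.17, edgeR adjusted p = 0.57). Recombination removes a single exon, and the count sums reads over the whole gene, so on MCD this count does not check the genotype labels, which are used below as given.

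Some libraries stood apart before any comparison was made. Xist and Y-linked counts divided the 22 livers into 12 female and 10 male, with 3 and 3, 3 and 2, 3 and 2, and 3 and 3 females and males in the 4 groups in the order given above. The 5 libraries with a low share of uniquely mapped reads in the study's own library statistics were the 5 male livers on chow, so sex and that share cannot be told apart on chow. The liver Cre MCD 1 carried Xist together with 675 Y-linked counts, more than any other female library. No gene of the set passed the term for sex (edgeR adjusted p from 0.27 to 0.99), a term that 2.7% of tested genes passed. The liver Cre MCD 3 held skeletal muscle RNA: 15 muscle markers, led by Myh1 at 608 CPM, summed to 3922 CPM there, against 2.15 to 185 CPM in the other Cre livers on MCD, at most 7.51 CPM in Cre livers on chow, at most 17.8 CPM in liver-Flcn-/- livers on chow and at most 88.2 CPM in liver-Flcn-/- livers on MCD. The liver at 185 CPM was Cre MCD 4, the other male Cre liver on MCD.

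The tissue label was met by hepatocyte markers, led by Alb. Their 10 genes summed to 143700 ± 18050 CPM (SD, n = 6) in Cre livers on chow, 94820 ± 14590 (n = 5) in Cre livers on MCD, 118500 ± 19660 (n = 5) in liver-Flcn-/- livers on chow and 77010 ± 8852 (n = 6) in liver-Flcn-/- livers on MCD, and 8 of the 10 were lower on MCD in each genotype. Of all tested genes, 28.2% were lower on MCD in Cre and 22.5% in liver-Flcn-/- mice. In bulk RNA, fewer cells of a type and less RNA per cell cannot be told apart. Of the adipocyte markers, Lep was at 0 counts in 22 of 22 libraries, Plin1, the perilipin of adipocytes, in 15 and Adipoq in 14. The highest counts of Adipoq and of Plin1, 27 and 10, were both in Cre MCD 3. The 11 adipocyte markers, led by Car3 and including Cidec, Pparg and Lipe, which liver also expresses, summed to 3671 ± 585 CPM in Cre livers on chow, 813 ± 373 in Cre livers on MCD, 3079 ± 783 in liver-Flcn-/- livers on chow and 760.4 ± 213 in liver-Flcn-/- livers on MCD. The lower sums on MCD were those of Car3, which hepatocytes also make in quantity. The other 10 markers summed to 33.9 ± 2.35, 159 ± 43.2, 34.7 ± 4.21 and 94.7 ± 14.2 CPM in the same order, higher on MCD, and the 9 without Cidec to 33.0 ± 1.89, 56.4 ± 8.21, 32.3 ± 3.96 and 43.0 ± 3.10 CPM. The 13 macrophage markers summed to 391 ± 67.1 CPM (n = 6) in Cre livers on chow, 607 ± 103 (n = 5) in Cre livers on MCD, 534 ± 79.8 (n = 5) in liver-Flcn-/- livers on chow and 637 ± 151 (n = 6) in liver-Flcn-/- livers on MCD, led by Clec4f on chow in both genotypes, by Lyz2 in Cre livers on MCD and by Cd63, a tetraspanin of late endosomes and lysosomes that is not particular to macrophages, in liver-Flcn-/- livers on MCD. Cd63 was 4.23, 86.2, 54.4 and 244 CPM in the mean of the groups in that order, and the 12 other markers summed to 386 ± 66.9, 521 ± 93.3, 479 ± 74.2 and 393 ± 123 CPM. On MCD 2 of the 13 were higher and 4 lower in liver-Flcn-/- than in Cre livers, beside 8.06% and 8.53% of all tested genes. The higher were Cd63 (log2 fold change 1.499, edgeR adjusted p = 0.0016) and Timd4 (0.94, edgeR adjusted p = 0.01). Among the lower were Trem2 and Itgam (-1.16 each, edgeR adjusted p = 0.0098 and 0.0068). Stellate cell markers, led by Dcn, summed to 377 ± 88.5, 620 ± 107, 444 ± 73.1 and 472 ± 33.3 CPM in the same order. The part these cell types have in the results below was not tested.

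More of the droplet genes passed for diet than for genotype, as was also so among all tested genes. On MCD, 7 of the 9 tested genes rose and 1 fell in Cre mice, where 57.5% of all tested genes passed the same test in either direction (29.3% rose and 28.2% fell), so that the share in the set was 88.9%. The median log2 fold change of the 9 was 1.10 against 0.01 for all tested genes. In liver-Flcn-/- mice MCD likewise raised 7 and lowered 1, beside 45.0% of all tested genes (22.5% in each direction), with a median of 0.94 against 0.00. Ranges on MCD and on chow did not overlap for 6 genes that were higher and 1 that was lower in Cre mice, where 15.6% and 16.9% of tested genes stood apart in those directions. The counts in liver-Flcn-/- mice were 5 and 1, beside 14.4% and 14.8%. Between genotypes 2 of the 9 (22.2%) were higher in liver-Flcn-/- mice on chow and none was called lower in edgeR or limma-voom. Beside them 8.62% of all tested genes were called, 5.52% higher and 3.1% lower. On MCD 2 (22.2%) were higher and none lower in edgeR, with 16.6% of all tested genes called, 8.06% higher and 8.53% lower. On chow the ranges stood apart for 1 gene that was higher and 1 that was lower in liver-Flcn-/- livers, beside 4.01% and 2.93% of tested genes, and on MCD for 2 that were higher, beside 5.08%. The interaction of genotype and diet asks whether the log2 response to MCD differed between genotypes. It was past the threshold for 2 genes, both with the smaller log2 response in liver-Flcn-/- mice. Beside them stood 8.83% of all tested genes in either direction and 5.54% with a negative interaction. The comparisons share groups, so their counts are not independent of each other.

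**Figure D1:**
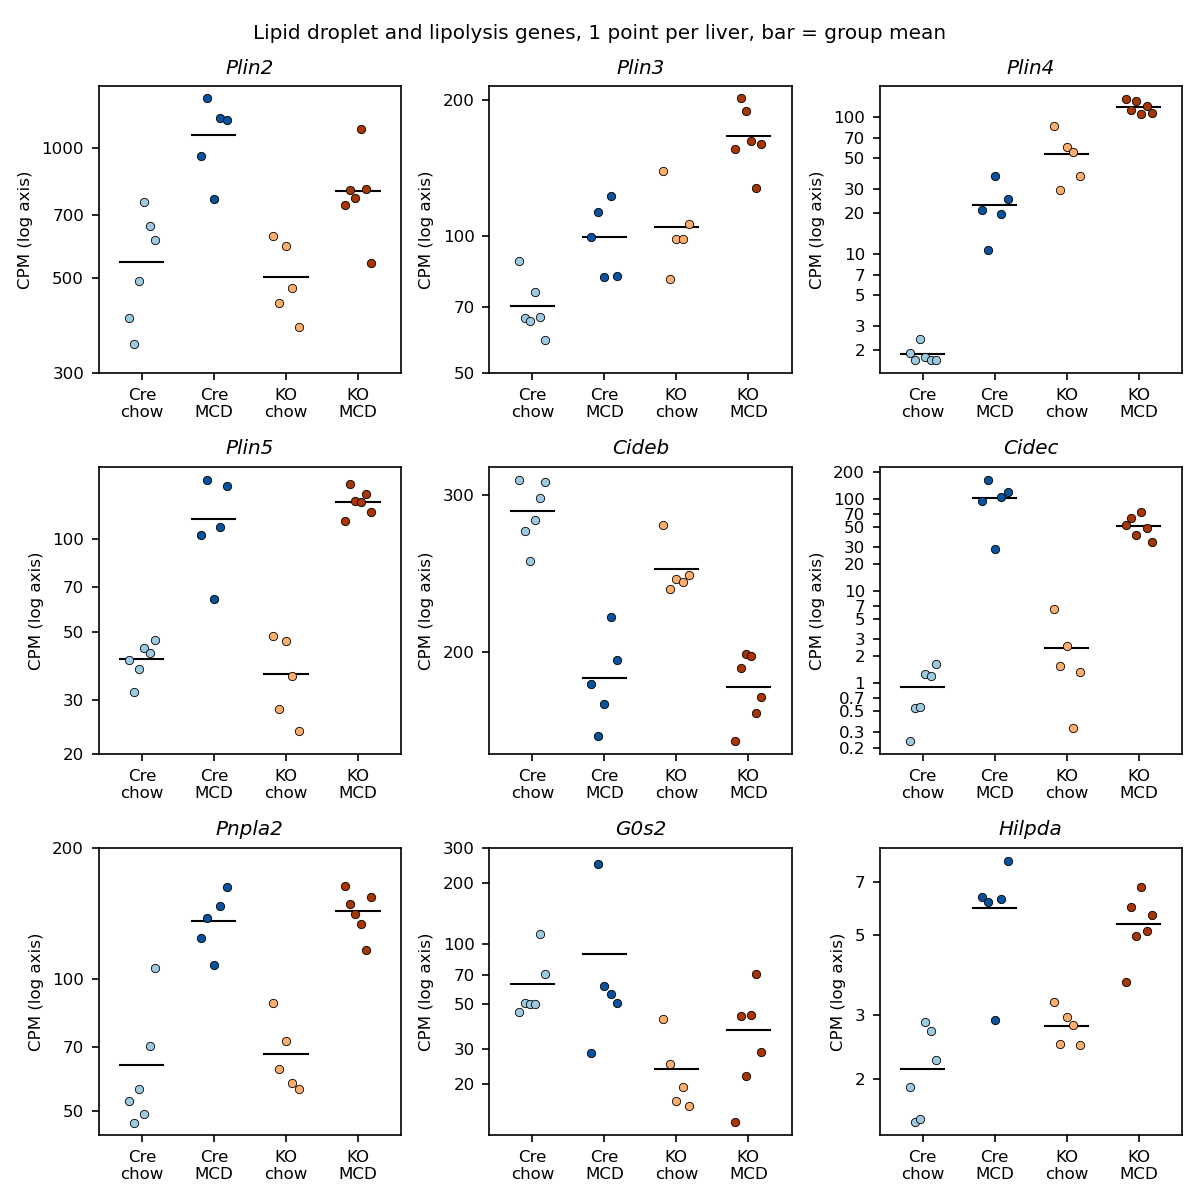
Level of each tested droplet gene in every liver, in CPM on a log axis, for Cre and liver-Flcn-/- (KO) mice on chow or MCD; each point is 1 liver and each bar the group mean. Plin4 rises from 1.69 to 2.41 CPM in Cre livers on chow to 105.5 to 135 CPM in liver-Flcn-/- livers on MCD, and the groups that differ in genotype or in diet alone do not overlap.

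**Figure D2:**
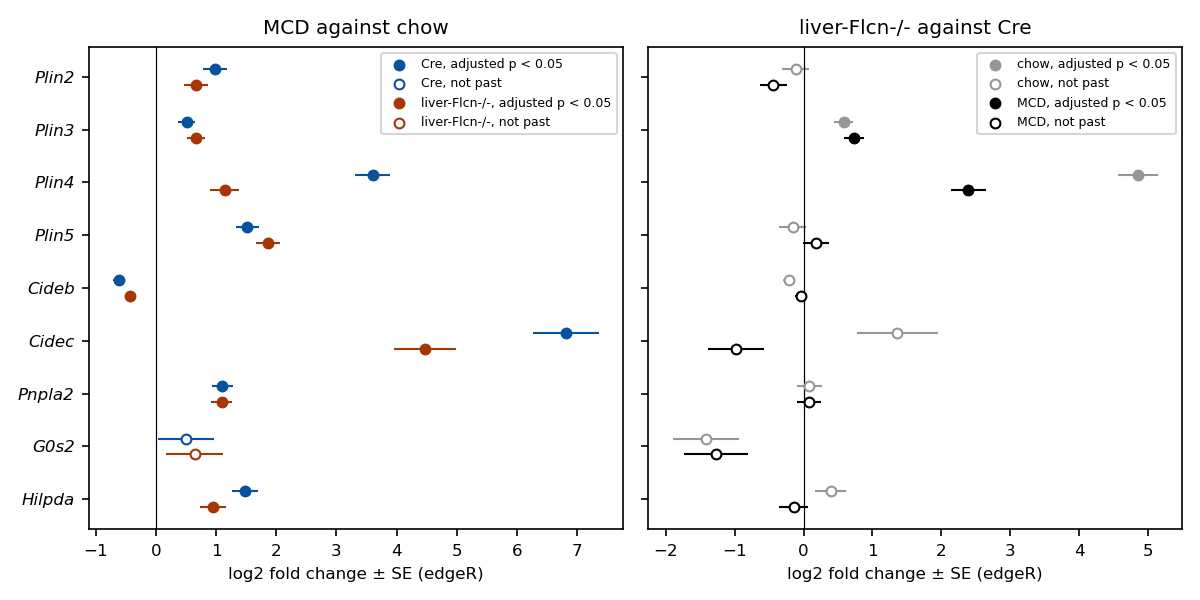
log2 fold change with its standard error for the 9 tested genes, MCD against chow on the left and liver-Flcn-/- against Cre on the right; filled points passed an adjusted p of 0.05 in edgeR. Cidec has the largest response to MCD of the 9, 6.81 in Cre and 4.47 in liver-Flcn-/- mice, and Plin4 the largest difference between genotypes, 4.85 on chow and 2.39 on MCD.

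Plin4, a perilipin with a long repeated amphipathic helix that is known from adipocytes and muscle, had the largest genotype differences of the 9 tested genes. Its gene lies on the minus strand at chr17:56100591-56109803 (GRCm38), and 17 of its exonic bases overlap the 3′ end region of Hdgfl2 on the other strand. In Cre livers on chow Plin4 was low, from 1.69 to 2.41 CPM with a median of 1.73. The 5 Cre livers on MCD had 20.8, 10.8, 36.8, 19.7 and 25.2 CPM. In liver-Flcn-/- livers the values on chow were 86.4, 29.2, 60.6, 55.8 and 37.3 CPM, and those on MCD ran from 105.5 to 135 CPM with a median of 117. Each pair of groups that differed in genotype or in diet alone was apart, every liver of one lying above every liver of the other.

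On chow Plin4 was 28.8-fold higher in liver-Flcn-/- than in Cre livers (log2 fold change 4.85 ± 0.29 SE, edgeR adjusted p = 3.8e-10), the 26th highest of 14062 fold changes in that comparison. On MCD the difference was 5.24-fold (2.39 ± 0.25, edgeR adjusted p = 1.9e-06), the 47th highest. MCD raised Plin4 12.1-fold in Cre mice (3.60 ± 0.28, edgeR adjusted p = 1.4e-09) and 2.21-fold in liver-Flcn-/- mice (1.14 ± 0.24, edgeR adjusted p = 0.00059). The response to MCD was therefore smaller on the log2 scale in liver-Flcn-/- mice, by -2.46 ± 0.37 (edgeR adjusted p = 0.00071). In CPM the mean rose from 1.86 ± 0.28 (SD, n = 6) to 22.7 ± 9.48 (n = 5) in Cre mice and from 53.9 ± 22.3 (n = 5) to 119 ± 12.3 (n = 6) in liver-Flcn-/- mice, so that the larger increase in CPM was in the knockouts. The exact permutation p was 0.00216 in all 4 comparisons, the smallest that 5 livers against 6 can give on the absolute difference of means (two-sided).

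The genotype difference of Plin4 was present in either sex. Among female livers it was 4.38 on chow (log2 fold change, edgeR adjusted p = 1.9e-05) and 2.66 on MCD (edgeR adjusted p = 0.00013), and among male livers 5.41 (edgeR adjusted p = 1.1e-05) and 2.05 (edgeR adjusted p = 0.0039). The response to MCD in liver-Flcn-/- mice passed among females (1.55, edgeR adjusted p = 0.00062) and not among males (0.67, edgeR adjusted p = 0.082), and the difference between the sexes was not tested. The highest Cre liver on MCD, at 36.8 CPM, was Cre MCD 3, which also held the muscle RNA. Without it the response to MCD in Cre mice was 3.35 (edgeR adjusted p = 1.6e-09), the genotype difference on MCD 2.63 (edgeR adjusted p = 5.8e-07) and the interaction -2.21 (edgeR adjusted p = 0.0006). Of the 75-base windows of the longest Plin4 transcript, 12.2% occur more than once in it, and none do in the longest transcripts of the other 9 genes, and reads from those windows would be lost wherever reads that map to several places were discarded.

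The start region of Plin4 is shown because this gene carried the largest genotype difference. The stretch from 250 bases before to 50 bases after the RefSeq start site (GRCm38.p6, minus strand, chr17:56109733-56110032) was searched on both strands for the E-box CACGTG, for TCACGTG, which contains it and is bound by factors of the MiT/TFE family, for TCATGTG, and for the PPAR direct repeats AGGTCANAGGTCA and AGGGCANAGGTCA. None of these letters occurred in it. The same windows of Plin2, the most abundant perilipin (minus strand, chr4:86670010-86670309), and of Cidec, the gene with the largest response to MCD (minus strand, chr6:113435711-113436010), are given beside it. Capitals mark the match in Plin2; there are none in the others.
Plin4: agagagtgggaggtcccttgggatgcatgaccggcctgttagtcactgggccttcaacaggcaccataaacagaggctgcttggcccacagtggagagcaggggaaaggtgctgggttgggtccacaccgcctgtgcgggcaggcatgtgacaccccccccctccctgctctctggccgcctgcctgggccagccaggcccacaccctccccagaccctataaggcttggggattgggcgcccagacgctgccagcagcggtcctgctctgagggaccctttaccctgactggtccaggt
Plin2: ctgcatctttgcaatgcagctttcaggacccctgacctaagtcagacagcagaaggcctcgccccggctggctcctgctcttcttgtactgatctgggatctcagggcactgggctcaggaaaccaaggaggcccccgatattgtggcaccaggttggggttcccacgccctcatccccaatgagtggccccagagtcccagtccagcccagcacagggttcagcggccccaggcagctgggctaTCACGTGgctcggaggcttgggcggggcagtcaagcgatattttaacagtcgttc
Cidec: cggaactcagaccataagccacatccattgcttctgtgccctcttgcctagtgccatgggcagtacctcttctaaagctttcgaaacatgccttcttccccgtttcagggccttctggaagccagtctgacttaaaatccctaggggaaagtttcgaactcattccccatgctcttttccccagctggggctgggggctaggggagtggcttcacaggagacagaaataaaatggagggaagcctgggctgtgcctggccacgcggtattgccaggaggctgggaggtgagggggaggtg
Of 12 such windows for 9 of the 10 genes, that of Plin2 was the only one with any match. It held a single TCACGTG, whose first base lies 5 bases before the start site. The start region of Cidea, the remaining gene, was not searched. CACGTG occurs in 7.15% of all 32851 RefSeq windows, TCACGTG in 3.77%, TCATGTG in 3.77%, AGGTCANAGGTCA in 0.0396% and AGGGCANAGGTCA in 0.0183%. A match is a description of the letters, and its absence says only that they are not in this window.

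Plin4 shares its stretch of chromosome 17 with Plin5 and Plin3, on the same strand. Among the 19 other tested genes that start within 200 kb of the Plin4 start, 2 differed between genotypes on chow and 7 on MCD, beside 8.62% and 16.6% of all tested genes, and the neighbourhood was not tested against other stretches of the genome. Plin5 starts 7.79 kb upstream, and its genotype difference was -0.16 ± 0.19 on chow (log2 fold change, edgeR adjusted p = 0.68). Plin3, 183 kb upstream, was higher in liver-Flcn-/- livers on both diets, by values given below. Uhrf1, which maintains DNA methylation in dividing cells and lies 194 kb upstream, was higher in liver-Flcn-/- livers on chow (1.46, edgeR adjusted p = 0.041) and lower on MCD (-1.70, edgeR adjusted p = 0.0031). Its level was low, with means of 0.483 CPM in Cre and 1.35 CPM in liver-Flcn-/- livers on chow. On MCD they were 4.69 and 1.43 CPM. Hdgfl2, 30.2 kb downstream, differed only on MCD by this test (-0.51, edgeR adjusted p = 0.0018), in the opposite direction to Plin4.

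**Figure D3:**
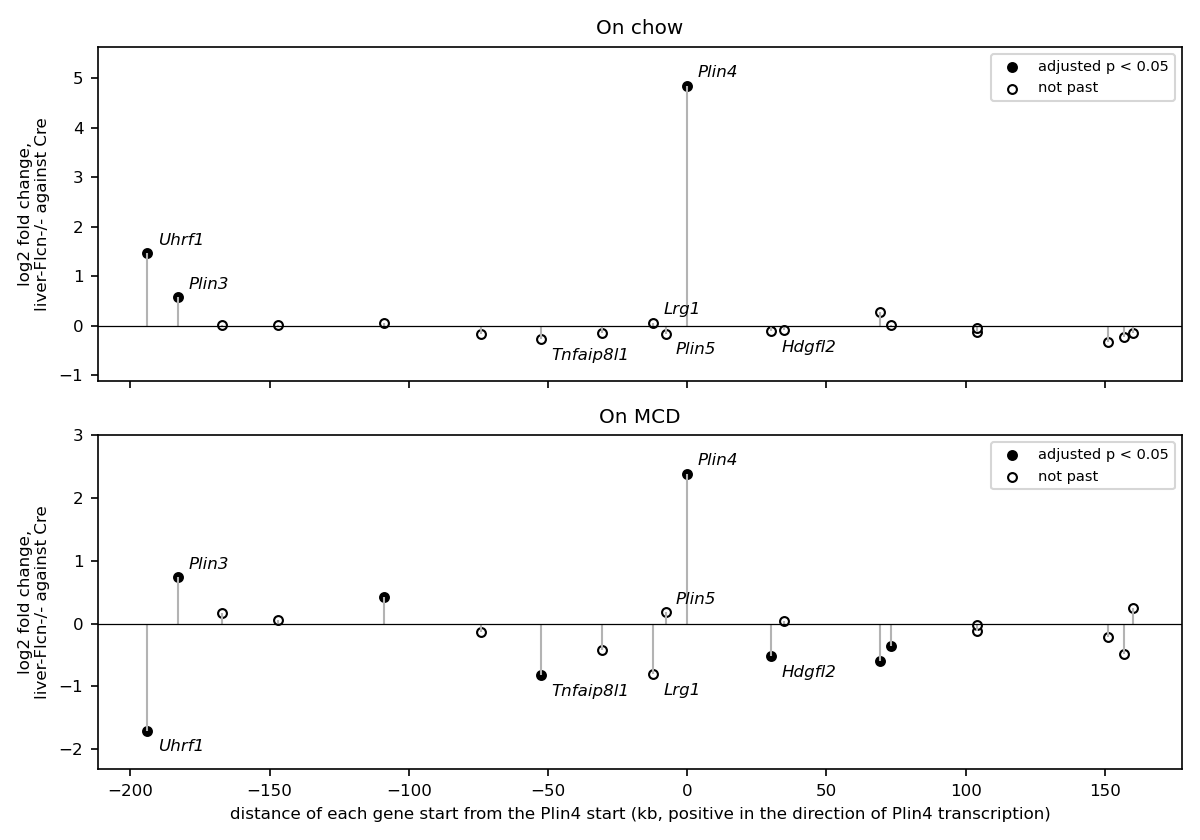
log2 fold change of liver-Flcn-/- against Cre livers on chow (top) and on MCD (bottom) for every tested gene that starts within 200 kb of the Plin4 start, by distance in kb along the direction of Plin4 transcription; filled points passed an adjusted p of 0.05 in edgeR. Plin4 stands at 4.85 and 2.39, and its nearest neighbour Plin5 at -0.16 and 0.19.

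Plin3, also called TIP47, is a perilipin that moves from the cytosol onto young droplets and is made in most tissues. Its level ran from 59.1 to 88.2 CPM (median 66.3) in Cre livers on chow and was 139.6, 80.6, 98.9, 99.0 and 106 CPM in liver-Flcn-/- livers on chow, so that these ranges overlapped. On MCD the Cre livers gave 99.6, 113, 81.3, 123 and 81.7 CPM and the liver-Flcn-/- livers 128 to 202 CPM (median 161), with no overlap. The genotype difference was 1.5-fold on chow (log2 fold change 0.58 ± 0.14 SE, edgeR adjusted p = 0.013) and 1.67-fold on MCD (0.74 ± 0.14, edgeR adjusted p = 0.0014). By exact permutation adjusted over all tested genes it missed the threshold on chow (p = 0.00649, adjusted p = 0.072) and passed on MCD (p = 0.00433, adjusted p = 0.048). MCD raised Plin3 in Cre mice (0.51 ± 0.14, edgeR adjusted p = 0.0044) and in liver-Flcn-/- mice (0.66 ± 0.14, edgeR adjusted p = 0.00076). On chow the difference was 0.47 without the 5 libraries of low uniquely mapped share and no longer past the threshold (edgeR adjusted p = 0.18), and within either sex it was not past it (0.47 and 0.77 in females and males). On MCD the genotype difference passed in females (0.70, edgeR adjusted p = 0.011) and not in males (0.76, edgeR adjusted p = 0.10), and neither response to MCD passed in males (0.54 in Cre and 0.52 in liver-Flcn-/- mice, edgeR adjusted p = 0.10 and 0.15).

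Plin2 (adipophilin), the main coat protein of hepatocyte droplets, followed diet only by these tests. It ran from 350 to 750 CPM (median 551) in Cre livers on chow, was 958, 1307, 763, 1177 and 1165 CPM in Cre livers on MCD and 625, 437, 591, 474 and 384 CPM in liver-Flcn-/- livers on chow, and ran from 542 to 1108 CPM (median 783) in liver-Flcn-/- livers on MCD. The diets were apart in Cre mice and overlapped in liver-Flcn-/- mice. MCD raised it 1.97-fold in Cre (0.98 ± 0.20, edgeR adjusted p = 0.00024) and 1.58-fold in liver-Flcn-/- mice (0.66 ± 0.20, edgeR adjusted p = 0.0099). The genotype difference on MCD was -0.44 ± 0.20 and did not pass (edgeR adjusted p = 0.14).

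Plin5, the perilipin of oxidative tissues that holds droplets against mitochondria, gave 31.8 to 47.2 CPM (median 41.5) in Cre livers on chow and 48.5, 27.9, 46.6, 35.8 and 23.8 CPM in liver-Flcn-/- livers on chow. On MCD it was 103, 156, 64.0, 109.7 and 149 CPM in Cre livers and 115 to 151 CPM (median 133) in liver-Flcn-/- livers. All livers on MCD lay above all livers on chow of their genotype. MCD raised Plin5 2.86-fold in Cre mice (1.52 ± 0.19, edgeR adjusted p = 1.1e-06) and 3.63-fold in liver-Flcn-/- mice (1.86 ± 0.20, edgeR adjusted p = 2.4e-07), responses whose difference of 0.34 ± 0.27 did not pass (edgeR adjusted p = 0.48). The lowest Cre liver on MCD, at 64.0 CPM, was Cre MCD 3.

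The make-up of the coat transcripts was described per length, as the share of each gene in the sum of Plin2 to Plin5 in CPM per kb of exon. These shares depend on the length taken. The merged exons of Plin2 span 3512 bases and its longest transcript 1888, by which its share would be larger. Plin2 made up 79.4% ± 4.47 (SD, n = 6) of this sum in Cre livers on chow, 78.1% ± 0.80 (n = 5) in Cre livers on MCD, 72.5% ± 2.39 (n = 5) in liver-Flcn-/- livers on chow and 63.3% ± 5.11 (n = 6) in liver-Flcn-/- livers on MCD. The share of Plin4 was 0.18% ± 0.05, 1.11% ± 0.72, 4.58% ± 1.06 and 5.93% ± 1.09 in that order. Plin5 held 10.3% ± 1.46, 14.0% ± 2.25, 8.73% ± 0.98 and 18.2% ± 2.42, and Plin3 10.1% ± 3.14, 6.84% ± 1.19, 14.2% ± 2.46 and 12.6% ± 2.45. The Plin2 share in liver-Flcn-/- livers on MCD, 56.4% to 71.7%, lay wholly below that in Cre livers on MCD, 77.4% to 79.1%.

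Cidec (Fsp27), which drives droplet growth in white adipocytes and appears in steatotic liver, had the largest response to MCD of the set. In Cre livers on chow it was barely counted, with 3 to 21 reads per library and 0.24 to 1.61 CPM (median 0.89). Cre livers on MCD had 94.6, 162, 28.7, 105 and 121 CPM. In liver-Flcn-/- livers it was 6.38, 1.55, 2.55, 0.33 and 1.35 CPM on chow and 34.4 to 71.9 CPM (median 50.3) on MCD. The diets were apart in both genotypes, and the genotypes overlapped on both diets.

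MCD raised Cidec 112-fold in Cre mice (6.81 ± 0.55, edgeR adjusted p = 1.8e-09) and 22.2-fold in liver-Flcn-/- mice (4.47 ± 0.51, edgeR adjusted p = 5e-07). When 1 liver was left out, these log2 responses ran from 6.59 to 7.05 and from 4.17 to 5.19. Without the 5 libraries of low uniquely mapped share they were 7.0 in Cre and 5.59 in liver-Flcn-/- mice. The difference between these responses was -2.34 ± 0.71 (edgeR adjusted p = 0.042), a call that rested on single livers: it held in 8 of the 22 fits that left out 1 liver (those without Cre Chow 4 or 6, Cre MCD 3, FLCN KO Chow 2, 4 or 5, or FLCN KO MCD 2 or 4) and not in the other 14, with values from -2.64 to -1.63, the last without FLCN KO Chow 1. It also missed the threshold in limma-voom (-1.77, adjusted p = 0.32) and, in edgeR, without the 5 libraries of low uniquely mapped share (-1.41, adjusted p = 0.34). On MCD itself Cidec was 0.506 times the Cre level in liver-Flcn-/- livers, which did not pass (-0.98 ± 0.40, edgeR adjusted p = 0.10), and passed without Cre MCD 3 (-1.22, edgeR adjusted p = 0.024), with the uniquely mapped share as a covariate (-0.98, edgeR adjusted p = 0.044) and without the 5 libraries of low share (-0.98, edgeR adjusted p = 0.038). Among females this difference was -1.61 (edgeR adjusted p = 0.0018) and among males -0.11 (edgeR adjusted p = 0.94); the difference between the sexes was not tested. The male value rests on 2 Cre livers on MCD, Cre MCD 3 and Cre MCD 4. They held the most muscle RNA of that group, at 3922 and 185 CPM over the 15 markers. Cre MCD 3, with the highest Adipoq and Plin1 counts, had the lowest Cidec of the Cre livers on MCD. The other 4 had 2161 to 3753 reads of Cidec, 0 of Adipoq and 1, 0, 2 and 1 of Plin1. Plin1 was at 0 in the Cre livers on chow. The 9 adipocyte markers without Car3 and Cidec summed to 33.0 CPM in Cre livers on chow and 56.4 CPM on MCD. The part of adipocyte RNA in these Cidec values was not tested.

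Cideb, the CIDE protein of normal hepatocytes, was the only one of the 9 tested genes to fall on MCD. It ran from 253 to 312 CPM (median 290) in Cre livers on chow, and was 185, 161, 175, 219 and 196 CPM in Cre livers on MCD. In liver-Flcn-/- livers it was 278, 235, 241, 240 and 244 CPM on chow and 159 to 199 CPM (median 185) on MCD, apart from chow in either genotype. The log2 fold change was -0.62 ± 0.09 in Cre (edgeR adjusted p = 3.7e-06) and -0.44 ± 0.09 in liver-Flcn-/- mice (edgeR adjusted p = 0.00029). Of the exonic bases of Cideb, 76.3% overlap Nop9 on the opposite strand, and the strand setting of the counting is not given in the sources used here, so reads of the pair may not be separable. Nop9 rose on MCD in both genotypes (0.46 and 0.48, edgeR adjusted p = 0.0082 and 0.0085), opposite to Cideb.

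The ratio of Cidec to Cideb counts was 0.00313 ± 0.00173 (SD, n = 6) in Cre livers on chow and 0.555 ± 0.302 (n = 5) on MCD. In liver-Flcn-/- livers it was 0.00941 ± 0.00827 (n = 5) on chow and 0.283 ± 0.0695 (n = 6) on MCD. The mean of liver-Flcn-/- livers on chow was raised by FLCN KO Chow 1, at 0.0230, and the median there was 0.00657. Cidea, the family member of brown fat, stayed below the filter with a mean of 1.95 reads per library. It summed to 1, 22, 5 and 15 reads over the Cre chow, Cre MCD, liver-Flcn-/- chow and liver-Flcn-/- MCD groups, with 5 of 6, 0 of 5, 2 of 5 and 1 of 6 libraries at 0. No library had more than 8 reads of it. With no filter on low counts edgeR called it higher on MCD in Cre mice (adjusted p = 0.0042) and in no other comparison (adjusted p from 0.34 to 0.54), and no fold change is given because the Cre chow group held a single read.

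Pnpla2, the lipase of the first step, ran from 46.8 to 106 CPM (median 54.5) in Cre livers on chow and was 125, 138, 108, 147 and 162 CPM in Cre livers on MCD. It was 88.3, 62.2, 72.3, 58.0 and 56.1 CPM in liver-Flcn-/- livers on chow and 117 to 164 CPM (median 145) on MCD. Every liver on MCD was above every liver on chow of its genotype, and the genotypes overlapped on each diet. MCD raised Pnpla2 2.14-fold in Cre (1.10 ± 0.18, edgeR adjusted p = 1.9e-05) and 2.13-fold in liver-Flcn-/- mice (1.09 ± 0.18, edgeR adjusted p = 4.6e-05). The genotype difference was 0.09 ± 0.18 on chow and 0.07 ± 0.18 on MCD (edgeR adjusted p = 0.82 and 0.83).

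G0s2, the inhibitor that binds the lipase directly, behaved unlike the rest. It ran from 45.6 to 112 CPM (median 50.8) in Cre livers on chow, and the 5 Cre livers on MCD gave 28.7, 250, 61.6, 56.1 and 50.9 CPM. Liver-Flcn-/- livers on chow gave 42.1, 25.3, 16.5, 19.5 and 15.7 CPM, all below the lowest Cre liver on chow, and those on MCD 13.0 to 71.2 CPM (median 36.3), which overlapped with Cre. The 2.67-fold lower level on chow missed the threshold in edgeR (-1.42 ± 0.48, adjusted p = 0.072) and passed it by exact permutation over all tested genes (p = 0.00216, adjusted p = 0.045), and 2.93% of tested genes were apart in that direction. DESeq2 also called it lower on chow (-1.41, adjusted p = 0.041). In edgeR it passed when the chow groups alone were fitted (-1.39, adjusted p = 0.016), and without Cre MCD 2 (-1.42, adjusted p = 0.018) or without FLCN KO Chow 1 (-1.72, adjusted p = 0.046). It thus passed in 2 of the 22 fits that left out 1 liver and in 2 of 12 other alternatives, DESeq2 and the chow groups alone. The rest missed the threshold, among them limma-voom (-1.46, adjusted p = 0.06), the replicate block (-1.32, edgeR adjusted p = 0.12), the fit without the 5 libraries of low uniquely mapped share (-1.33, edgeR adjusted p = 0.32) and females and males alone (-1.33 and -1.36, edgeR adjusted p = 0.27 and 0.32). On MCD it was 2.41-fold lower (-1.27 ± 0.46, edgeR adjusted p = 0.065, exact permutation p = 0.119), and passed in edgeR without Cre MCD 1 (-1.49, adjusted p = 0.034) or without FLCN KO MCD 5 (-1.56, adjusted p = 0.032). Without Cre MCD 2, the liver at 250 CPM, the difference on MCD was only -0.41 (edgeR adjusted p = 0.51), so its size rests on that liver. No response to MCD passed in either genotype (0.50 ± 0.46 in Cre and 0.65 ± 0.47 in liver-Flcn-/- mice, edgeR adjusted p = 0.37 and 0.28), and the Cre value was -0.36 without Cre MCD 2.

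Hilpda, an inhibitor of the same lipase that hypoxia and fatty acids induce, was a gene of low abundance in all 4 groups. It ran from 1.52 to 2.86 CPM (median 2.07) in Cre livers on chow, and was 6.34, 6.16, 2.91, 6.26 and 7.99 CPM in Cre livers on MCD. It was 3.27, 2.50, 2.96, 2.81 and 2.48 CPM in liver-Flcn-/- livers on chow and 3.69 to 6.76 CPM (median 5.40) on MCD. The diets were apart in both genotypes, in Cre mice by the narrow margin of Cre MCD 3 at 2.91 CPM. MCD raised it 2.78-fold in Cre (1.48 ± 0.22, edgeR adjusted p = 7.7e-06) and 1.92-fold in liver-Flcn-/- mice (0.94 ± 0.22, edgeR adjusted p = 0.0014).

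Set against the lipase, its regulators took different courses. The ratio of G0s2 to Pnpla2 counts was 1.02 ± 0.32 (SD, n = 6) in Cre livers on chow, 0.66 ± 0.65 (n = 5) in Cre livers on MCD, 0.345 ± 0.0991 (n = 5) in liver-Flcn-/- livers on chow and 0.276 ± 0.187 (n = 6) in liver-Flcn-/- livers on MCD. The mean of Cre livers on MCD was raised by Cre MCD 2, at 1.81, and the median there was 0.381. On chow the knockouts, 0.228 to 0.477, lay wholly below the Cre livers, 0.666 to 1.60. Hilpda to Pnpla2 was between 0.0357 and 0.0428 in the means of the 4 groups, with overlapping ranges. The activator Abhd5 did not pass in any comparison (edgeR adjusted p from 0.55 to 0.98), and its ratio to Pnpla2 was 0.661 ± 0.145 and 0.577 ± 0.110 on chow against 0.312 ± 0.0503 and 0.298 ± 0.0419 on MCD in Cre and liver-Flcn-/- livers. These ratios carry no test.

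**Figure D4:**
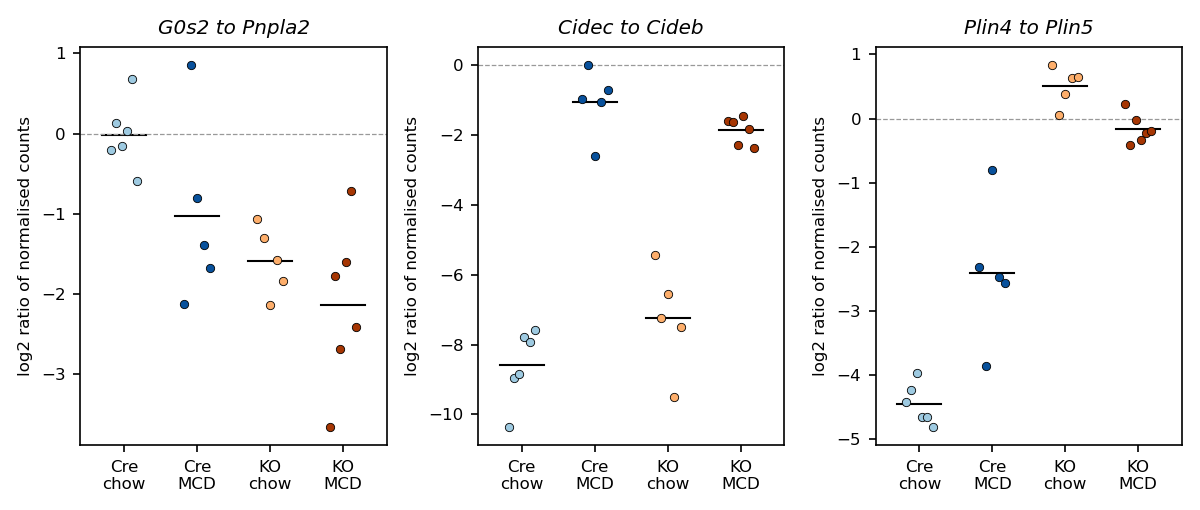
log2 ratio of normalised counts of G0s2 to Pnpla2, Cidec to Cideb and Plin4 to Plin5 in every liver by group; each point is 1 liver, bars are group means and the dashed line marks equal counts. On chow the G0s2 to Pnpla2 ratio of the liver-Flcn-/- livers, -2.14 to -1.07, lies below that of the Cre livers, -0.59 to 0.67, and Plin4 to Plin5 is above 0 in the liver-Flcn-/- livers on chow, 0.06 to 0.83.

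Levels between genes were ordered per length, in CPM per kb of merged exons. In Cre livers on chow Cideb (193.5 ± 15.4) and Plin2 (155 ± 44.1) led and their ranges overlapped; with the longest transcript as the length instead, Plin2 (288 ± 82.0) came before Cideb (237.5 ± 18.9). G0s2 (72.8 ± 29.2) followed, overlapping with Plin2 and apart from Pnpla2 (21.0 ± 7.43), while Pnpla2, Plin5 (19.5 ± 2.59) and Plin3 (18.5 ± 2.73) overlapped with their neighbours. Hilpda (1.93 ± 0.52), Cidec (0.49 ± 0.29), Plin4 (0.32 ± 0.05) and Cidea (0.0091 ± 0.022) came last. In Cre livers on MCD Plin2 (306 ± 60.9) lay above Cideb (126 ± 14.7) without overlap. G0s2 (103 ± 104) came next but ran from 32.95 to 287, through the range of Cideb and into that of Plin2, its highest liver being Cre MCD 2. Cidec (55.0 ± 26.1) reached the range of Plin5 (55.8 ± 17.9) and Pnpla2 (45.1 ± 6.93).

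In liver-Flcn-/- livers on chow Cideb (166 ± 11.4) and Plin2 (143 ± 29.2) led again, with overlapping ranges, and Plin3 (27.7 ± 5.71) came next without reaching Plin2. With the longest transcript as the length, Plin2 came before Cideb here too. G0s2 (27.3 ± 12.5), Pnpla2 (22.3 ± 4.39), Plin5 (17.5 ± 5.25) and Plin4 (9.32 ± 3.86) then overlapped one with the next, with Hilpda (2.54 ± 0.30) below them. In liver-Flcn-/- livers on MCD Plin2 (226 ± 51.8), Cideb (123 ± 10.9), Plin5 (63.4 ± 6.09) and Pnpla2 (47.4 ± 5.45) followed each other without overlap. With the longest transcript as the length, the ranges of Plin5 and Pnpla2 overlapped. Plin3 (43.9 ± 6.87), G0s2 (42.7 ± 23.7), Cidec (27.9 ± 7.40) and Plin4 (20.6 ± 2.12) followed with overlaps between neighbours, G0s2 running from 14.9 to 81.7 across the ranges of Pnpla2 and Plin5, and Hilpda (4.87 ± 0.94) and Cidea (0.10 ± 0.08) came last.

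Other genes of the droplet and its lipids were counted by list, to be read beside all tested genes. Of these, 29.3% rose and 28.2% fell on MCD in Cre mice and 22.5% each way in liver-Flcn-/- mice, and between genotypes 5.52% were higher and 3.1% lower on chow and 8.06% higher and 8.53% lower on MCD. No list was tested against the set or against all genes. Of 23 tested genes for droplet formation and other droplet proteins, 5 rose and 7 fell in Cre mice (median log2 fold change -0.12) against 4 up and 7 down in liver-Flcn-/- mice (median -0.13). Acsl4, an acyl-CoA synthetase for arachidonic acid, rose in both (1.22 and 1.04), and the sterol enzyme Nsdhl fell in both (-2.03 and -2.08, edgeR adjusted p = 3.6e-08 each). Bscl2, which encodes seipin, did not pass in any comparison (edgeR adjusted p from 0.34 to 0.97). Hsd17b13, a droplet enzyme of hepatocytes, rose on MCD in liver-Flcn-/- mice (0.90 ± 0.11, edgeR adjusted p = 1.5e-06) with 0.03 ± 0.11 in Cre mice (edgeR adjusted p = 0.84), and the difference between these responses passed (0.87 ± 0.16, edgeR adjusted p = 0.0022). Its level was 711 ± 29.9 CPM (n = 6) in liver-Flcn-/- and 371 ± 72.2 CPM (n = 5) in Cre livers on MCD. Between genotypes 1 of the 23 was higher and 1 lower on chow, and 3 higher and 2 lower on MCD. Fitm1, which partitions triglyceride into droplets, was lower in liver-Flcn-/- livers on chow (-1.86 ± 0.44, edgeR adjusted p = 0.01) and on MCD (-1.72 ± 0.42, edgeR adjusted p = 0.007).

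Most lipases and hydrolases fell on MCD while Pnpla2 rose. Of 25 tested, 15 fell and 4 rose in Cre mice (median -0.97) and 14 fell and 4 rose in liver-Flcn-/- mice (median -0.52). The carboxylesterase Ces3b fell from 482 ± 203 to 4.79 ± 3.34 CPM in Cre mice and from 356 ± 154 to 5.40 ± 2.51 CPM in liver-Flcn-/- mice. Pnpla3, whose human form carries a well known risk allele for fatty liver, went from 9.89 ± 8.49 CPM on chow to 0.16 ± 0.10 CPM on MCD in Cre mice and from 11.4 ± 10.7 to 0.09 ± 0.05 CPM in liver-Flcn-/- mice (edgeR adjusted p = 1.3e-05 and 4.1e-06), a few reads per library on MCD. Lpl, the lipase of circulating lipoproteins, rose on MCD in both (3.37 ± 0.27 and 1.20 ± 0.26) and was higher in liver-Flcn-/- livers on chow (1.59 ± 0.25, edgeR adjusted p = 0.00026). Between genotypes 1 was higher and 4 lower on chow, and 2 higher and 5 lower on MCD. Lipe, hormone-sensitive lipase, was lower in liver-Flcn-/- livers on MCD (-0.52 ± 0.15, edgeR adjusted p = 0.019); Mgll, the monoglyceride lipase, fell on MCD in Cre mice (-0.51 ± 0.17, edgeR adjusted p = 0.014); and the lysosomal lipase Lipa did not pass in any comparison (edgeR adjusted p from 0.11 to 0.91).

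Perilipins and CIDE genes are known targets of PPARs. Of 23 tested PPAR-alpha targets, 11 rose and 4 fell on MCD in Cre mice (median 0.35) against 11 up and 3 down in liver-Flcn-/- mice (median 0.61), while 1 was higher and 1 lower between genotypes on chow and 2 and 2 on MCD. Cyp4a31, a fatty acid hydroxylase, rose 37.8-fold in Cre and 52.2-fold in liver-Flcn-/- mice, and Fabp1, the fatty acid binding protein of hepatocytes, fell (-2.41 ± 0.28 and -1.50 ± 0.26). Of 10 tested PPAR-gamma targets, 5 rose and 2 fell in Cre mice against 6 up and 3 down in liver-Flcn-/- mice, with 2 higher and 1 lower between genotypes on chow and 1 and 2 on MCD. Cd36, the fatty acid translocase, rose on MCD (3.24 ± 0.30 and 2.40 ± 0.31) and was higher in liver-Flcn-/- livers on chow (1.23 ± 0.29, edgeR adjusted p = 0.0086).

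Of 21 regulators of droplet genes, 5 rose and 10 fell on MCD in Cre mice against 5 up and 8 down in liver-Flcn-/- mice. Pparg rose in both (1.29 ± 0.24 and 1.00 ± 0.24, edgeR adjusted p = 0.00012 and 0.002), Srebf1, which drives fatty acid synthesis, fell in both (-1.54 ± 0.29 and -1.77 ± 0.28), and Ppara did not pass in any comparison (edgeR adjusted p from 0.12 to 1.0). Between genotypes on chow 0 of the 21 passed in edgeR, where 5 had an unadjusted p under 0.05; limma-voom also called 0 and DESeq2 called 1 higher and 2 lower. On MCD 3 were higher and 2 lower in liver-Flcn-/- livers, among them the coactivator Ppargc1a (1.10 ± 0.21, edgeR adjusted p = 0.00096) and Tfe3, a factor of the MiT/TFE family (-0.29 ± 0.07, edgeR adjusted p = 0.0061). Of 15 tested hypoxia targets, a list examined because hypoxia induces Hilpda, 3 rose and 8 fell on MCD in Cre mice against 1 up and 8 down in liver-Flcn-/- mice, with 1 lower between genotypes on chow and 2 lower on MCD.

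**Figure D5:**
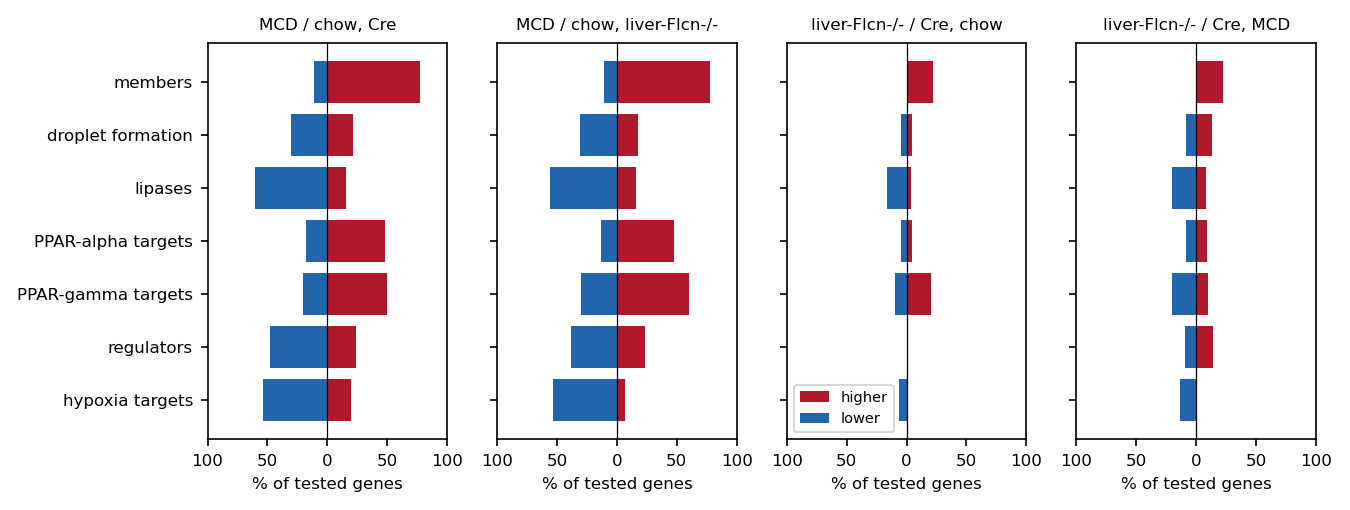
Percent of the tested genes of each list that passed an adjusted p of 0.05 in edgeR as higher (right of 0) or lower (left of 0), for the 4 pairwise comparisons. The droplet genes stand at 7 of 9 higher on MCD in both genotypes, while the lipases lean to lower, 15 of 25 in Cre and 14 of 25 in liver-Flcn-/- mice.

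The genes most like each member were found over the 22 livers as those whose standardised log2 CPM differed least (root mean square difference, in SDs), among 12847 genes. Plin4 was nearest to Cln6 (0.216), a gene of neuronal ceroid lipofuscinosis, then Uap1l1 (0.257) and Bex2 (0.296), and its distance to Plin5 was 0.988. The nearest to Plin5 was Chchd10 (0.196), a mitochondrial protein gene, to Cidec Gss (0.223), glutathione synthetase, and to Pnpla2 Agpat3 (0.261), a lysophospholipid acyltransferase. Cidec, Plin5, Pnpla2 and Hilpda lay between 0.376 and 0.54 of one another. With group means removed, the nearest genes changed to Cd81 for Plin4 (0.518), Pllp for Plin5 (0.346) and Rab34 for Cidec (0.574). G0s2 had no gene nearer than 0.681.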

How the data were processed

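Raw gene-level read counts were deposited by the authors for 22 mouse livers (KAPA mRNA HyperPrep libraries). Per the labels, reads passed through bcl2fastq, Trimmomatic and STAR (GRCm38), and the authors counted them with HTSeq; the annotation release, strand setting and treatment of duplicate reads are not given in the sources used here. Depth was 13751347 to 21144388 counts per library, and 50 same-group pairs of libraries held 0 identical pairs (Spearman rho across genes 0.939 to 0.994). Groups came from the labels; each library is a mouse. After removal of genes whose mean count was below 10, the 14062 left of 55573 were fitted once over the 4 groups in edgeR 4.0.16 (R 4.3.3) with TMM factors and the quasi-likelihood test, Benjamini-Hochberg adjusted over all tested genes at 0.05; the study's own test was limma. CPM were computed on TMM-scaled library sizes. Exact two-sided permutation used log2 CPM (prior count 2) over 462 regroupings. Alternatives were limma-voom 3.58.1, DESeq2 1.42.0, RLE factors, other filters, only the groups compared, covariates or subsets by uniquely mapped share and sex, a replicate block, and leaving out each library; fits within a sex were added after the data were seen. On counts simulated with 200 changed genes among 14062, log2 fold changes of 1 and 2 were recovered in 75% and 97% of cases for the genotype contrast on chow, where 8.02% of calls were false, and in 70% and 88% for the interaction, where 3.66% were. Exon lengths came from GENCODE M21 and start sites from RefSeq (GRCm38.p6). The 10 genes and the other lists were chosen with earlier results of these data known. Named were all 10, Flcn, fixed partner genes, up to 2 genes per direction with the largest fold change in each list, and nearest genes by likeness; the neighbours of Plin4 and Nop9 were chosen by position. Where reads are few, as for Cidea, counting error limits the comparison.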

Additional observations from a re-analysis of the deposited data

Results flagged for a closer look

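Of 36 sets of 5 or 6 livers examined, 3 held a liver far from the rest of its group; chance flags about 1 in 20 groups. Plin4 in Cre Chow 3 was 2.41 CPM, above 1.69 to 1.90 CPM in the other Cre livers on chow. Cideb in FLCN KO Chow 1 was 278 CPM, above 235 to 244 CPM in the other 4. G0s2 in Cre MCD 2 was 250 CPM, above 28.7 to 61.6 CPM in the other 4.

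The response to MCD differed between genotypes by the interaction term for Plin4 (-2.46 on the log2 scale, edgeR adjusted p = 0.00071), for Cidec (-2.34, edgeR adjusted p = 0.042), for Hsd17b13 (0.869, edgeR adjusted p = 0.0022) and for Uhrf1 (-3.16, edgeR adjusted p = 0.0024). Uhrf1 was low, with a mean of 0.483 CPM in Cre livers on chow. The call for Cidec was lost in 14 of the 22 fits that left out 1 liver, in limma-voom (-1.77, adjusted p = 0.32), with the replicate block (-2.17, edgeR adjusted p = 0.12) and without the 5 chow libraries of low uniquely mapped share (-1.41, edgeR adjusted p = 0.34). With all livers Plin4, Cidec and Uhrf1 had the smaller response on the log2 scale in liver-Flcn-/- mice and Hsd17b13 the larger. In CPM the increase of Plin4 was larger in liver-Flcn-/- mice.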

How the results depend on the processing

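Counts of the 9 genes past the threshold in edgeR were 8 under MCD in both genotypes and 2 in each genotype contrast and in the interaction. Among male livers alone they were 6 for MCD in Cre mice (Plin3 and Hilpda lost, edgeR adjusted p = 0.10 and 0.053), 4 for MCD in liver-Flcn-/- mice (Plin2, Plin3, Plin4 and Hilpda lost, edgeR adjusted p = 0.19, 0.15, 0.082 and 0.15) and 1 for the genotype contrast on MCD (Plin3 lost, edgeR adjusted p = 0.10). That contrast gave 3, Cidec being added, with the uniquely mapped share as a covariate, without the 5 chow libraries where it was low and in females alone. The genotype contrast on chow gave 1 without the 5 chow libraries of low uniquely mapped share, in females alone and in males alone, the lost gene being Plin3, and 3 in DESeq2 and with only the groups compared, G0s2 being added. The interaction gave 1 under limma-voom, with at least 10 counts in every library, without those 5 libraries, with the replicate block and in males alone. Without a filter on low counts, where all 10 genes are tested, the count under MCD was 9 in Cre mice, Cidea being added and G0s2 not passing, and it was 7 in both genotypes with at least 10 counts in every library, a filter that Cidec does not pass. With each library left out in turn the interaction count was 1 to 2, the genotype contrasts 2 to 3 and MCD 8 throughout. Replicate numbers were not taken to pair the livers: same-numbered deviations correlated at -0.551 to 0.47 between genotypes on chow, 0.0621 to 0.262 on MCD, -0.136 to -0.0146 between diets in Cre and -0.187 to 0.21 in liver-Flcn-/- mice, so that in no comparison was every pair above 0.1. With the replicate block the interaction of Cidec was -2.17 (edgeR adjusted p = 0.12) and Pnpla2 between genotypes on MCD was -0.017. Over all genes, calls between genotypes on chow went from 1212 to 494 without the 5 libraries, to 624 in females, to 339 in males and to 670 without FLCN KO Chow 4. Interaction calls went from 1242 to 779 without the 5 libraries, to 552 with the block, to 1212 in females, to 62 in males, to 819 without Cre MCD 1 and to 820 without FLCN KO Chow 4. In males the calls were 687 against 2333 between genotypes on MCD, 4684 against 8089 for MCD in Cre and 2916 against 6328 in liver-Flcn-/- mice. The cause of these changes was not tested.

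Differences that never passed turned sign in females alone for Cideb (0.0167), Pnpla2 (-0.0453), Plin5 (-0.0436) and Flcn (0.24) between genotypes on MCD and for the interaction of G0s2 (-0.10). In males alone this was so for Hilpda between genotypes on MCD (0.25), for Plin2 (0.15) and Plin5 (0.16) between genotypes on chow, for MCD in Cre mice of Flcn (0.13) and G0s2 (-0.35), and for the interactions of Plin3 (-0.0149) and Pnpla2 (0.12). One difference that had passed turned sign: Scd2 under MCD in liver-Flcn-/- mice was -1.32 with all livers (edgeR adjusted p = 0.012) and 0.46 in males. Leaving out 1 library gave ranges across 0 for Cideb between genotypes on MCD (-0.0815 to 0.0299), Flcn under MCD in Cre mice (-0.257 to 0.0117), G0s2 under MCD in Cre mice (-0.36 to 0.74) and in the interaction (-0.14 to 1.01), and Pnpla2 between genotypes on chow (-0.031 to 0.292) and in the interaction (-0.22 to 0.10). Of 4032 fits of 119 results for other named genes, 3799 kept direction and call.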
